A study of Mus musculus with 7 samples.

Results

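The receptors through which the liver senses foreign chemicals, their dimer partners, and the reductase that feeds electrons to the cytochrome P450 enzymes were examined in cultured primary hepatocytes, with WDR6-WKO mice set against WT mice. The group was chosen by gene symbol and not by measured values. It lists 8 genes, *Nr1i2*, *Nr1i3*, *Ahr*, *Arnt*, *Ahrr*, *Rxra*, *Por* and *Tiparp*. Of these, 6 were found among the 14819 rows of the read-count table and all 6 passed the filter on low counts, which 14779 rows passed. *Nr1i3*, which encodes the receptor CAR, and *Ahrr*, the repressor of AhR, were not analysed here. The hepatocytes came from the livers of male mice, were plated in William's E medium with fetal bovine serum and kept overnight, and received no treatment. RNA was sequenced from 4 WT libraries and 3 libraries of WDR6-WKO mice, which lack the second exon of *Wdr6* in the whole body after CRISPR-Cas9 deletion. Cells other than hepatocytes, and the liver before isolation, therefore lacked WDR6 as well. The study bought C57BL/6J mice for its animal work in general, but the sources used here do not state age or strain separately for the donors of these hepatocytes. The libraries are described there as independent experiments.

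Nuclear receptors of the xenobiotic type are switched on by drugs, bile acids and pollutants and then raise the enzymes that oxidize, conjugate and export such compounds. PXR (encoded by *Nr1i2*) and CAR bind DNA as heterodimers with RXRA, the retinoid X receptor of the hepatocyte. AhR works in another way, since it waits in the cytosol with HSP90, enters the nucleus on binding a ligand, and pairs there with ARNT on a DNA element with the core GCGTG. TIPARP, a mono-ADP-ribosyltransferase, and AHRR are both induced by AhR and both restrain it. POR, the NADPH-dependent P450 reductase of the endoplasmic reticulum, serves the P450 enzymes that these receptors induce.

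Total counts lay between 17816913 and 23668940 per library, and levels are given as CPM, the reads of a gene scaled to a common library size after TMM normalization. *Wdr6*, the targeted gene, had 972, 776, 769 and 909 reads in WT replicates 1 to 4 and 62, 49 and 40 reads in WDR6-WKO replicates 1 to 3, that is 44.0 ± 4.03 CPM (SD, n = 4) and 2.38 ± 0.179 CPM (SD, n = 3). WDR6-WKO replicate 3, the smallest library, stood apart. An adjusted p under 0.05, written "called" here, was reached by 1897 genes with all libraries, by 4233 without that library, and by 1032 to 1401 without any other single library. Values without it are given for each of the 6 genes, and for other named genes and lists where a call was lost or a count moved most. With library sizes alone in place of TMM, 63.5% of the called genes were higher in WDR6-WKO, against 51.8% with TMM.

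Of all genes tested, 12.8% were called, 6.65% higher and 6.18% lower. The hepatocyte markers *Apoa1*, *Cps1*, *Asgr1* and *Hnf4a* were called lower, 4 of 6 tested. The summed level of the list was 8009 to 9574 CPM in WT and 7413 to 7912 in WDR6-WKO. Most of that sum was *Alb*, which was not called (adjusted p = 0.101 in edgeR). Of the Kupffer cell markers 3 of 12 were called higher, *C1qb*, *C1qc* and *Lyz2*, with a summed level of 860 to 939 CPM in WT and 993 to 1191 in WDR6-WKO, while *Timd4* had a log2 fold change of -0.48 and was not called (adjusted p = 0.0880 in edgeR). The stellate cell list had 2 of 9 called higher (*Dcn* and *Acta2*; 674 to 735 CPM in WT, 725 to 792 in WDR6-WKO), and among those not called *Pdgfrb*, *Lrat* and *Col1a1* had log2 fold changes of -0.23, -0.18 and -0.03. The cholangiocyte list had 2 of 5 called higher (*Sox9* and *Spp1*; 3068 to 3360 CPM in WT, 3714 to 4306 in WDR6-WKO). Most of its sum was *Spp1*, at mean levels of 2980 and 3693 CPM, and the keratin genes *Krt19* (148 and 143 CPM) and *Krt7* (3.10 and 2.87 CPM) were not called. Of the 9 sinusoidal endothelial markers edgeR, DESeq2 and limma-voom called 0 (320 to 364 CPM in WT, 302 to 358 in WDR6-WKO). In edgeR 0 of the 9 had an unadjusted p under 0.05, where 4160 of all 14779 genes did. *Ptprc*, the only lymphocyte marker tested of 4 listed, lay between 12.9 and 16.0 CPM in WT and between 14.2 and 15.2 in WDR6-WKO. No tested marker had 0 counts in any library. Over 14 alternative fits in all, the call of *Asgr1* was lost in 9 and those of *Dcn*, *Sox9* and *C1qb* in 5 each. Some marker calls were lost in edgeR when 1 library was left out, those of *Asgr1* in 6 of 7 such fits (adjusted p = 0.0519 to 0.133; 0.0633 without WDR6-WKO replicate 3), *Dcn* in 5 (0.0509 to 0.0913; 0.0547 without WDR6-WKO replicate 3), *Sox9* in 5 (0.0503 to 0.0937) and *C1qb* in 4 (0.0689 to 0.118).

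Promoter windows of 300 bases, 250 before and 50 after the start of transcription, were taken from RefSeq on GRCm38.p6, which held an entry for 7 of the 8 genes and none for *Ahr*. The windows of *Tiparp*, which rose, of *Arnt* and *Nr1i2*, which fell, and of *Por*, which was not called, are shown 5′ to 3′ with every GCGTG, on either strand, in capitals (CACGC where the match is on the other strand). The window of *Por* surrounds an annotated start that lies inside the full span of the gene given below for GENCODE, since longer transcripts begin further upstream.

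*Tiparp*, chr3:65528197-65528496, plus strand: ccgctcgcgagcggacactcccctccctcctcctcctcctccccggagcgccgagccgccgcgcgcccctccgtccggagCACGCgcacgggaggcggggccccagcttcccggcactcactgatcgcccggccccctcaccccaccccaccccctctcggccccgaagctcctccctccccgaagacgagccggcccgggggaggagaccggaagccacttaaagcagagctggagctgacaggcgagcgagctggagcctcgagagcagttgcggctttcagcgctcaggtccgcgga

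*Arnt*, chr3:95434140-95434439, plus strand: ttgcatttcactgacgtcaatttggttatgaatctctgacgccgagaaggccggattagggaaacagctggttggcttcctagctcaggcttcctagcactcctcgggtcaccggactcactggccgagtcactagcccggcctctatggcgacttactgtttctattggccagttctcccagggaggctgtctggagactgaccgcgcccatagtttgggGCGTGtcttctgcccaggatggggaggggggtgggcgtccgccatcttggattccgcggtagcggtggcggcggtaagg

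*Nr1i2*, chr16:38294775-38295074, minus strand: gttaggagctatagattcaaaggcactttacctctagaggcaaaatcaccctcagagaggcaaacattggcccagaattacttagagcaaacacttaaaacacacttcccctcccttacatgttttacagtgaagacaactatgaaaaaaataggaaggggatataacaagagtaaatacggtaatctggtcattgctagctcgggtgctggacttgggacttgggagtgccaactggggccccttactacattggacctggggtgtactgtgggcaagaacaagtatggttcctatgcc

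*Por*, chr5:135688895-135689194, plus strand: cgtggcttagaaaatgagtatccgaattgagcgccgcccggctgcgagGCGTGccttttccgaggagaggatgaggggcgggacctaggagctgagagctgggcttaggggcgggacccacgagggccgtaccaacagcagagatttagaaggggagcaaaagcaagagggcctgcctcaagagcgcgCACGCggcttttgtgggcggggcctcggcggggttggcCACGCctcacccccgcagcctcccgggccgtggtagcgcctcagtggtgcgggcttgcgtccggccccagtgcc

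The letters GCGTG occurred 1 time in the window of *Tiparp*, 1 time in that of *Arnt*, 3 times in that of *Por* and 0 times in that of *Nr1i2*. Of all 32851 windows in the RefSeq table, 32.4% held them on either strand. The longer form TNGCGTG, which contains GCGTG, was found in 5.07% of all windows. It was in none of the windows of *Nr1i2*, *Arnt*, *Rxra*, *Por* and *Tiparp*, while that of *Ahrr* held 1 and *Ahr* had no entry. AGGTCA, a core recognized by many nuclear receptors, was present in 16.3% of all windows, and among these genes it was found 2 times in the downstream window of *Rxra* and 0 times in its upstream window and in those of the other genes. A match describes the letters and does not show that a factor binds there.

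Of the 6 genes measured, *Ahr*, *Arnt* and *Nr1i2* fell in WDR6-WKO hepatocytes, *Tiparp* rose, and *Rxra* and *Por* were not called. The genes that fell stood at 70.1% (*Ahr*), 80.7% (*Nr1i2*) and 85.0% (*Arnt*) of the WT level, and *Tiparp* at 126%. Called genes were thus 4 of 6, where 12.8% of all genes tested were called, 6.65% higher and 6.18% lower. In 4 of the 6, those same called genes, the lowest library of the higher group was above the highest of the other, and this held for 23.5% of all genes tested. The study called differentially expressed genes with DESeq2. Its thresholds, a log2 fold change of 0.35 or more in size with an unadjusted p under 0.05, were applied here to the edgeR values. Only *Ahr* of the 6 passed them, against 10.4% of all genes tested. With 6 genes these shares are counts and not a test. In RNA of whole cultures, fewer cells that express a gene and less RNA per cell cannot be told apart.

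**Figure D1:**
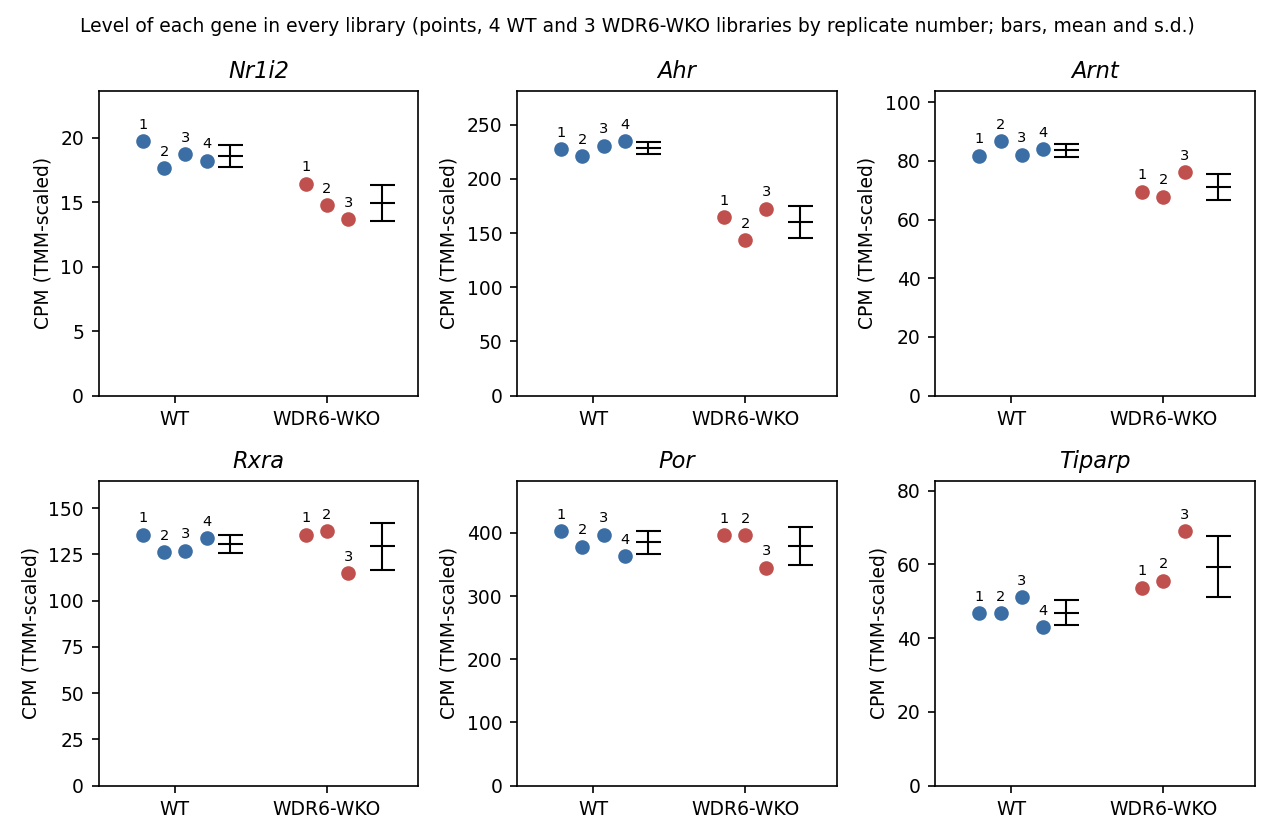
CPM after TMM scaling (y axes, from 0) of *Nr1i2*, *Ahr*, *Arnt*, *Rxra*, *Por* and *Tiparp* in 4 WT (blue) and 3 WDR6-WKO (red) libraries, with replicate numbers above the points and the mean and SD beside them. All WDR6-WKO points of *Ahr* (143 to 172 CPM) lie below all WT points (221 to 235 CPM), while for *Rxra* and *Por* the groups overlap and replicate 3 (115 and 345 CPM) lies below all WT points.

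*Ahr*, which encodes the ligand-binding subunit of the AhR-ARNT dimer, occupies chromosome 12 of GRCm38 from 35497974 to 35535038 (minus strand, 11 exons). Its level was 227, 221, 231 and 235 CPM in WT replicates 1 to 4, and 164, 143 and 172 CPM in WDR6-WKO replicates 1 to 3. Every WDR6-WKO library was below every WT library, with replicate 2 the lowest. The mean fell from 228 ± 5.81 CPM (SD, n = 4) to 160 ± 15.1 CPM (SD, n = 3), a log2 fold change of -0.51 (s.e. 0.06, adjusted p = 3.34e-05 in edgeR's quasi-likelihood test). The exact two-sided permutation test gave p = 0.0286, the smallest that 35 splits of 7 libraries allow. Without WDR6-WKO replicate 3 the log2 fold change of *Ahr* was -0.57. Of its 5548 exon bases 127 overlap *Gm48236* on the opposite strand, and whether the counting used strand was not given in the sources used here.

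*Arnt*, the nuclear partner of AhR, which also pairs with the hypoxia factors, spans 95434388 to 95497240 on the plus strand of chromosome 3, with 21 exons. It was counted at 81.7, 86.6, 82.0 and 83.9 CPM in WT replicates 1 to 4 and at 69.5, 67.8 and 76.1 CPM in WDR6-WKO replicates 1 to 3. The groups did not overlap, although the gap between 76.1 and 81.7 CPM was narrower than for *Ahr*. The level fell from 83.6 ± 2.25 CPM (SD, n = 4) to 71.1 ± 4.39 CPM (SD, n = 3), with a log2 fold change of -0.23 (s.e. 0.06, adjusted p = 0.0135 in edgeR). *Arnt* was no longer called without WT replicate 2 (adjusted p = 0.0530 in edgeR), WDR6-WKO replicate 1 (0.0607) or WDR6-WKO replicate 2 (0.0643), and without WDR6-WKO replicate 3 its log2 fold change was -0.29 (0.000106).

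*Tiparp*, the AhR-induced enzyme that marks AhR with ADP-ribose and limits its activity, lies on the plus strand of chromosome 3 from 65528410 to 65555518 and has 6 exons. Levels of *Tiparp* were 46.8, 46.7, 51.2 and 43.0 CPM in WT replicates 1 to 4 and 53.7, 55.6 and 69.0 CPM in WDR6-WKO replicates 1 to 3. All WDR6-WKO libraries were above the highest WT library, and replicate 3 was the highest. The mean rose from 46.9 ± 3.35 CPM (SD, n = 4) to 59.4 ± 8.31 CPM (SD, n = 3), a log2 fold change of 0.34 (s.e. 0.08, adjusted p = 0.0163 in edgeR). Without WDR6-WKO replicate 3 the log2 fold change was 0.22 and *Tiparp* was still called (adjusted p = 0.00814 in edgeR), and without WT replicate 4 it was not (0.0621). Of its 4191 exon bases 223 overlap *4931440P22Rik* on the opposite strand.

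*Nr1i2* encodes PXR, the receptor for many drugs and steroids that drives *Cyp3a11* in the mouse. It occupies chromosome 16 from 38248323 to 38294824 (minus strand, 9 exons). The 4 WT libraries held *Nr1i2* at 19.7, 17.6, 18.7 and 18.2 CPM, from 337 to 391 reads, and the 3 WDR6-WKO libraries at 16.4, 14.7 and 13.7 CPM. No WDR6-WKO library reached the lowest WT library. The mean fell from 18.6 ± 0.875 CPM (SD, n = 4) to 14.9 ± 1.38 CPM (SD, n = 3), a log2 fold change of -0.31 (s.e. 0.09, adjusted p = 0.0329 in edgeR). *Nr1i2* was close to the threshold. Its adjusted p in edgeR was 0.0521 with library sizes alone, 0.0539 to 0.0887 without WT replicate 1, 2, 3 or 4, and 0.107 without WDR6-WKO replicate 2. Without WDR6-WKO replicate 3 the log2 fold change was -0.25 (adjusted p = 0.0380 in edgeR).

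*Rxra*, the shared partner of PXR, CAR and several lipid-sensing receptors, spans 27676440 to 27762957 on the plus strand of chromosome 2, with 10 exons. Its level was 135, 126, 127 and 134 CPM in WT replicates 1 to 4 and 136, 137 and 115 CPM in WDR6-WKO replicates 1 to 3. WDR6-WKO replicates 1 and 2 were slightly above the highest WT library, and replicate 3 was below the lowest. The means were 131 ± 4.71 CPM (SD, n = 4) and 129 ± 12.5 CPM (SD, n = 3), with a log2 fold change of -0.01 and a 95% interval of -0.15 to 0.12 (adjusted p = 0.925 in edgeR). Without replicate 3 the log2 fold change was 0.06 (adjusted p = 0.338 in edgeR) and the *Rxra* ranges no longer overlapped, and the sign also turned without WT replicate 1 and with library sizes alone.

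*Por* encodes the P450 reductase, which passes electrons from NADPH to every microsomal P450 and to heme oxygenase and squalene epoxidase. It spans 135670033 to 135735326 on the plus strand of chromosome 5, with 16 exons. *Por* was counted at 402, 378, 397 and 363 CPM in WT replicates 1 to 4 and 396, 396 and 345 CPM in WDR6-WKO replicates 1 to 3. Replicates 1 and 2 lay within the WT range, and replicate 3 was below it. Means of 385 ± 18.1 CPM (SD, n = 4) and 379 ± 29.8 CPM (SD, n = 3) gave a log2 fold change of -0.02 with a 95% interval of -0.14 to 0.10 (adjusted p = 0.844 in edgeR). Without replicate 3 it was 0.04 (adjusted p = 0.530 in edgeR).

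Ratios of these genes within a library do not depend on the scaling. All 15 pairs were compared, and in 9 of them the ratios of the WDR6-WKO libraries lay outside the WT range. Each of these 9 pairs holds *Ahr*, *Nr1i2* or *Tiparp*, whose own ranges were separate, as for 23.5% of all genes tested. The pairs share genes, so the count is not further evidence, and the share over all gene pairs was not computed. All 9 had the smallest p that the exact permutation test allows, so their adjusted p reflects that count and adds no support. The log2 ratio of *Ahr* to *Arnt* was 1.45 ± 0.07 (SD, n = 4) in WT and 1.17 ± 0.08 (SD, n = 3) in WDR6-WKO, so *Ahr* fell by more than its partner (exact two-sided permutation p = 0.0286, 0.0476 after Benjamini-Hochberg adjustment over the 15 pairs). The log2 ratio of *Ahr* to *Tiparp* changed the most, from 2.29 ± 0.12 (SD, n = 4) to 1.43 ± 0.16 (SD, n = 3), with the same p-values in the exact permutation test. For *Nr1i2* against *Rxra*, the receptor and its partner, the log2 ratio went from -2.81 ± 0.05 (SD, n = 4) to -3.11 ± 0.09 (SD, n = 3), again with the smallest p that the exact permutation test allows. The ratio of *Rxra* to *Por* differed by 0.01 on the log2 scale (exact permutation p = 0.914), and that of *Arnt* to *Rxra* did not pass the test (-0.22, exact permutation p = 0.171).

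Levels between genes were compared per length, as CPM per kb of exon. In WT hepatocytes the order was *Por* at 120 ± 5.65, *Ahr* at 41.2 ± 1.05, *Rxra* at 25.2 ± 0.909, *Arnt* at 17.3 ± 0.467, *Tiparp* at 11.2 ± 0.798 and *Nr1i2* at 7.28 ± 0.343 CPM per kb (SD, n = 4). Ranges of neighbours in this order did not overlap. In WDR6-WKO hepatocytes the order of the means was the same, with 118 ± 9.30, 28.9 ± 2.72, 25.0 ± 2.42, 14.7 ± 0.908, 14.2 ± 1.98 and 5.85 ± 0.539 CPM per kb (SD, n = 3). There, *Ahr* (25.8 to 31.1 CPM per kb) overlapped *Rxra* (22.2 to 26.5), and the highest library of *Tiparp* (16.5) was above the highest of *Arnt* (15.7).

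**Figure D2:**
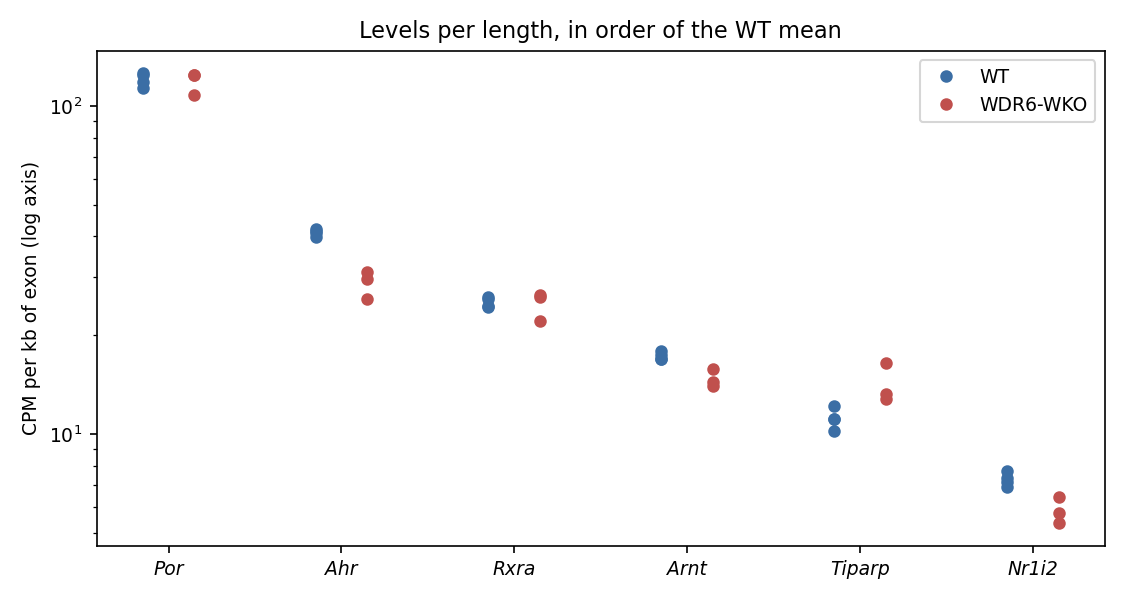
CPM per kb of exon on a log axis for the 6 genes, in order of the WT mean, with 1 point for each WT (blue) and WDR6-WKO (red) library. *Ahr* drops towards *Rxra*, and *Arnt* and *Tiparp* meet at 12.8 to 16.5 CPM per kb in WDR6-WKO.

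Genes known to be induced by AhR moved in both directions. Of 13 listed, 10 were tested, 1 was called higher and 3 lower, against 6.65% and 6.18% of all genes, and the median log2 fold change was -0.05, where that of all genes tested was 0.01. *Cyp1a2*, a hepatic P450 that depends on AhR, was counted at 13.6, 14.9, 11.6 and 13.7 CPM in WT replicates 1 to 4 and at 11.1, 8.13 and 10.2 CPM in WDR6-WKO replicates 1 to 3. It fell to 73.0% of the WT level (log2 fold change -0.45, standard error 0.12, adjusted p = 0.0227 in edgeR). Leaving out WT replicate 1, 2 or 4 or WDR6-WKO replicate 2 removed its call, with adjusted p-values of 0.0528 to 0.124 in edgeR. *Nfe2l2*, which encodes NRF2, the regulator of antioxidant genes, fell from 434 ± 9.36 CPM (SD, n = 4) to 337 ± 21.4 CPM (SD, n = 3), a log2 fold change of -0.37. *Ugdh*, which makes the UDP-glucuronate used in conjugation, fell by 0.22 on the log2 scale. *Xdh*, the xanthine dehydrogenase, rose from 161 ± 4.70 CPM (SD, n = 4) to 196 ± 4.05 CPM (SD, n = 3), a log2 fold change of 0.29. The most familiar AhR target, *Cyp1a1*, was scarce, at 0.213 to 0.681 CPM in WT and 0.614 to 0.748 CPM in WDR6-WKO, and was not called (adjusted p = 0.236 in edgeR).

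Of 37 listed targets of CAR and PXR, 29 were tested, 10 were called lower, 2 higher and 17 neither way, where 6.18% of all genes were called lower and 6.65% higher. The log2 fold change was below 0 in 19 of the 29, against 7219 of all 14779 genes, and the median was -0.12. *Fmo5*, a flavin monooxygenase of the liver, stood at 63.9, 66.9, 75.7 and 84.6 CPM in WT replicates 1 to 4 and at 32.7, 26.9 and 30.0 CPM in WDR6-WKO replicates 1 to 3. It fell to 41.1% of the WT level (log2 fold change -1.28, standard error 0.10, adjusted p = 1.50e-06 in edgeR). *Cyp2a5*, a coumarin hydroxylase, fell from 28.3 ± 2.55 CPM (SD, n = 4) to 12.4 ± 1.42 CPM (SD, n = 3), 43.8% of the WT level. It shares 40.8% of its 50-base sequences with other genes, mainly *Cyp2a4*, so its value is uncertain. *Gstm1*, a glutathione transferase, fell by 0.40 on the log2 scale and shares 23.1% of its 50-base sequences with other genes, mainly *Gstm2-ps1*. *Aldh1a7* rose from 37.8 ± 3.71 CPM (SD, n = 4) to 47.5 ± 3.07 CPM (SD, n = 3), with 7.49% of its 50-base sequences shared, mainly with *Aldh1a1*, and was not called without WDR6-WKO replicate 1 (adjusted p = 0.0748 in edgeR). *Cyp3a11*, the enzyme most closely tied to PXR, was low in these cultures, at 4.20 ± 0.893 CPM (SD, n = 4) in WT and 2.89 ± 0.403 CPM (SD, n = 3) in WDR6-WKO, and was not called (log2 fold change -0.55, adjusted p = 0.0710 in edgeR). The levels of the hepatocyte and Kupffer cell markers given above moved beside these lists, and their part in the result was not tested. Without WDR6-WKO replicate 2, 7 of the 29 were called, and without replicate 3, 17. Those fits called 1032 and 4233 of all genes.

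**Figure D3:**
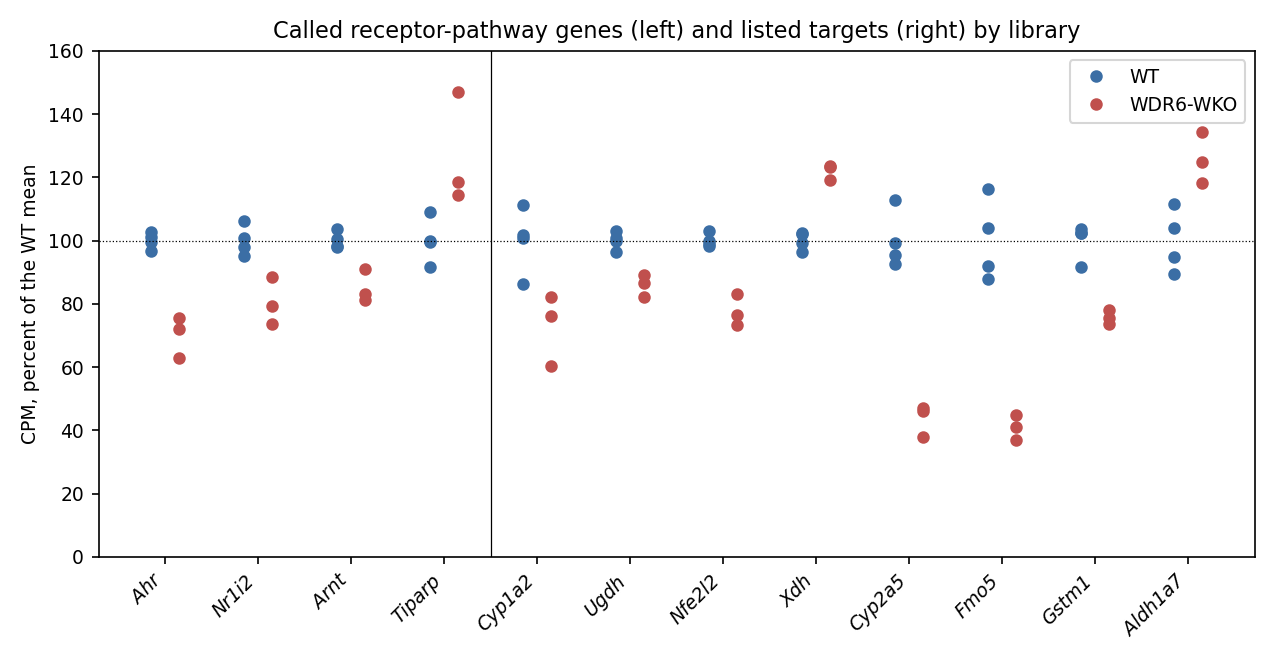
CPM as percent of the WT mean (y axis, from 0) in each WT (blue) and WDR6-WKO (red) library, for the 4 called genes *Ahr*, *Nr1i2*, *Arnt* and *Tiparp* at the left and for targets of AhR, CAR and PXR at the right. *Fmo5* and *Cyp2a5*, at 41.1% and 43.8% of WT by the edgeR fit, lie furthest below 100%.

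Genes for the proteins that hold the receptors in the cytosol, and for the coactivators and corepressors that they recruit, were called at a share near that of all genes. All 24 listed were tested, 1 was called higher and 3 lower, where 12.8% of all genes were called, with a median log2 fold change of -0.06. *Hspa8*, a constitutive HSP70 chaperone, fell by 0.30 on the log2 scale but shares 73.2% of its 50-base sequences with other genes, mainly *Gm15459*. *Nr0b2*, which encodes SHP, a repressor of several nuclear receptors, fell from 3.87 ± 0.329 CPM (SD, n = 4) to 2.19 ± 0.0749 CPM (SD, n = 3), 56.5% of the WT level (adjusted p = 0.00403 in edgeR). The corepressor gene *Ncor1* fell by 0.16 on the log2 scale and was not called in 6 of the 7 fits without 1 library, all but that without WDR6-WKO replicate 3. Without WDR6-WKO replicate 3, 12 of the 24 were called, 4 higher and 8 lower, in a fit that called 4233 of all 14796 genes.

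Other nuclear receptors that pair with RXRA, hypoxia factors that pair with ARNT, and related RXR and bHLH-PAS genes made a list of 20. Of the 19 tested, 0 were called higher and 3 lower (median log2 fold change -0.02). In edgeR 6 of the 19 had an unadjusted p under 0.05, as did 4160 of all 14779 genes. The 3 of 19 are near the 12.8% called over all genes. *Epas1*, the hypoxia factor HIF-2α and a partner of ARNT, fell from 108 ± 1.09 CPM (SD, n = 4) to 90.8 ± 7.45 CPM (SD, n = 3), 84.0% of the WT level, close to the 85.0% of *Arnt*. *Pparg* fell by 0.35 and *Nr1h4*, the bile acid receptor FXR, by 0.21 on the log2 scale. In edgeR the adjusted p was 0.00960 for *Epas1*, 0.0126 for *Pparg* and 0.0272 for *Nr1h4*. *Nr1h4* was not called with library sizes alone (0.0526), without any 1 of the WT replicates (0.0551 to 0.0779) or without WDR6-WKO replicate 2 (0.105), *Pparg* not without WT replicate 3 (0.0504) or WDR6-WKO replicate 2 (0.0659), and *Epas1* not without WDR6-WKO replicate 2 (0.0527). Without WDR6-WKO replicate 2, edgeR called 0 of the 19, without WT replicate 3 it called 1, and without WDR6-WKO replicate 3 it called 5. Those fits called 1032, 1210 and 4233 of all genes.

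Genes around *Por* were the cytochrome b5 system, progesterone receptor membrane components, heme oxygenases, related diflavin reductases, the mitochondrial ferredoxin system and sterol enzymes. Of these 15, edgeR, DESeq2 and limma-voom called 0, where edgeR called 12.8% of all genes. In edgeR 3 of the 15 had an unadjusted p under 0.05, as did 4160 of all 14779 genes. The log2 fold changes of the 15 lay between -0.11 and 0.26 around a median of 0.00. Without WDR6-WKO replicate 2 or 3, edgeR called 1 of the 15, in fits that called 1032 and 4233 of all genes.

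*Tiparp* belongs to the PARP family, many of whose mono-ADP-ribosylating members are induced by interferon. Of 15 other members, all tested, 4 were called higher and 2 lower, against 6.65% and 6.18% of all genes, with a median log2 fold change of 0.07. *Parp12* rose from 63.9, 65.1, 66.2 and 57.8 CPM in WT replicates 1 to 4 to 89.4, 89.7 and 93.6 CPM in WDR6-WKO replicates 1 to 3, a log2 fold change of 0.52 (s.e. 0.06, adjusted p = 2.45e-05 in edgeR). The log2 fold change was 0.48 for *Parp14* and 0.37 for *Parp9*, which has 367 exon bases in common with *Dtx3l* on the opposite strand. *Tiparp*, at 0.34, was thus below these 3 genes. *Parp4*, the vault PARP, fell by 0.28 on the log2 scale and has 335 exon bases in common with *Gm16573* on the opposite strand. Its log2 fold change was -0.39 without WDR6-WKO replicate 3, and it was not called without WT replicate 2, 3 or 4 or WDR6-WKO replicate 1 or 2 (adjusted p = 0.0546 to 0.0991 in edgeR). Without WT replicate 2, 3 or 4 or WDR6-WKO replicate 1, 3 of the 15 were called, all higher. Those fits called 1180 to 1288 of all genes.

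**Figure D4:**
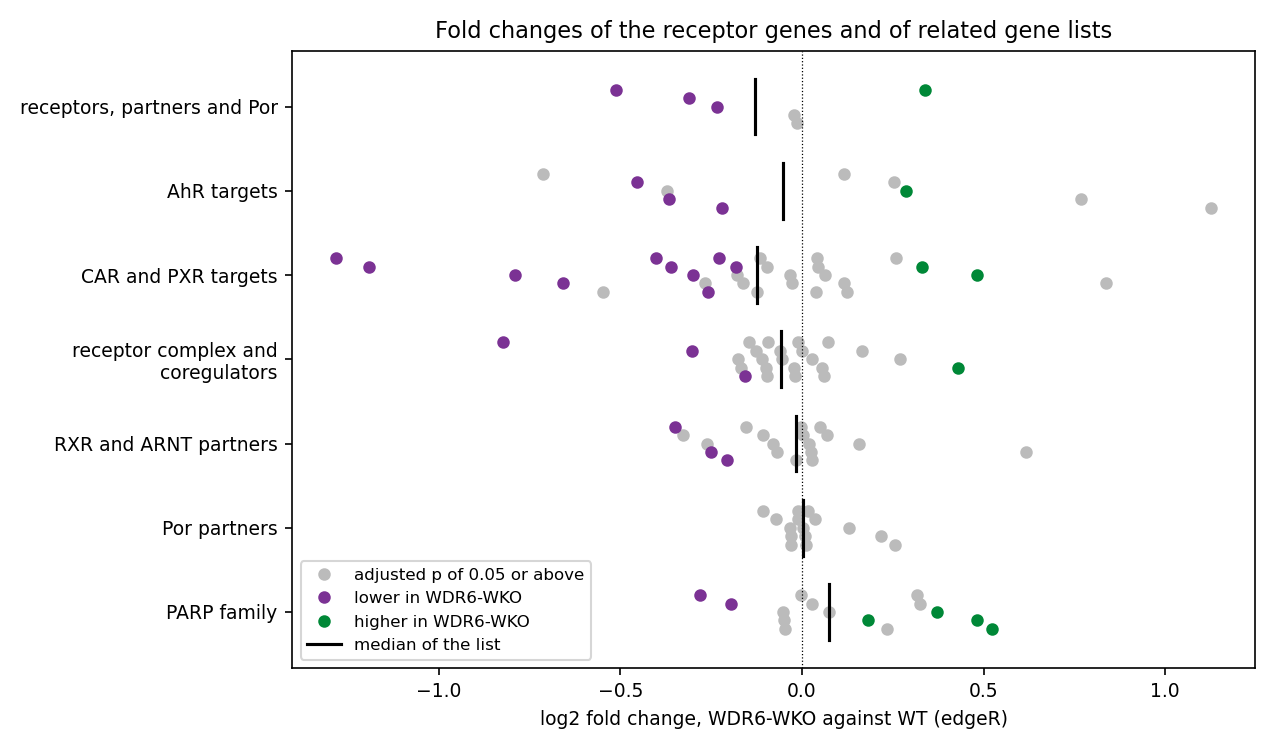
Log2 fold change of WDR6-WKO against WT from edgeR (x axis) for the 6 genes in the top row and for each tested gene of the 6 related lists below, coloured purple where called lower, green where called higher and grey otherwise, with the list median as a black line. Medians of the 7 rows lie between -0.13 and 0.07. The row of *Por* partners runs from -0.11 to 0.26 around a median of 0.00, with none called.

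Across all 7 libraries, the gene whose log2 CPM followed each most closely was *Prox1* for *Ahr* (Pearson r = 0.996), *Hsp90b1* for *Arnt* (0.998), *Ppp6r1* for *Nr1i2* (0.992), *Naa10* for *Por* (0.994) and *Alg12* for *Tiparp* (0.991). Each is the highest of 14779 genes over 7 points that share the same libraries and the same split by genotype, and the values are descriptions. Among the 6 genes themselves, *Ahr* and *Arnt* had an r of 0.943, *Rxra* and *Por* of 0.742, and *Nr1i2* and *Tiparp* of -0.86 over the same 7 libraries.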

How the data were processed

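RNA of primary hepatocytes from WT (n = 4) and WDR6-WKO (n = 3) mice was sequenced by the authors on an Illumina HiSeq platform. Reads were aligned to the mouse genome (mm10) with Bowtie2 2.2.3, per the labels. The authors deposited raw read counts per gene symbol. The counting tool, its annotation, strand setting and row filter were not given in the sources used here, and no row total was below 50. Columns were matched to samples by genotype and replicate number, and none was left unmapped.

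From the deposited counts, edgeR 4.0.16 (R 4.3.3) with TMM scaling, its expression filter and its robust quasi-likelihood test compared WDR6-WKO with WT, with Benjamini-Hochberg adjustment over all 14779 genes tested. Single genes and ratios were also tested by exact permutation over 35 splits. Log2 CPM used a prior count of 2. Alternatives were DESeq2 1.42.0, limma-voom (limma 3.58.1), other scaling, filters and thresholds, the replicate number as a block, and each library left out in turn. Counts of genes whose ranges do not overlap were recomputed in ways added after the data were seen. The fits were tested on simulated counts. Libraries of 1 group differed by more than sampling noise (chi-square per gene 3.80 to 15.9).

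The genes and lists were chosen with earlier results of these data known. Named were the 6 genes, *Wdr6*, from each list up to 3 called genes per direction with separate ranges and the smallest p, called markers, and for each of the 6 the gene with the highest Pearson r. Of the genes this rule names, 2 are not reported here. *Cyp1a1*, *Cyp3a11*, markers that were not called and the genes added in the closing section were chosen after their values were seen. Gene positions, lengths (union of exons of coding transcripts) and shared 50-base sequences came from GENCODE M21 on GRCm38.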

Additional observations from a re-analysis of the deposited data

Results flagged for a closer look

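In WT (n = 4), *Gstm1* stood out in replicate 3, at 207 CPM with the other 3 libraries close together above it, and the gap took up 0.888 of the whole range. *Lyz2* was highest in WT replicate 3, at 52.4 CPM, with a gap of 0.853 of the range. Both shares are above Dixon's 95% critical value for 4 samples. Among 37 genes examined this way 2 were past it, groups of 3 were not tested, and chance alone passes about 1 in 20 groups.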

How the results depend on the processing

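*Ahr* was called in all 14 alternatives, with log2 fold changes of -0.57 to -0.44. *Nr1i2* lost its call in 6 of 14, *Arnt* in 3 and *Tiparp* in 1, and none of them changed sign. With library sizes alone *Rxra* stood at 0.014 and *Por* at 0.0043, both above 0, and leaving out 1 library gave log2 fold changes of -0.058 to 0.062 for *Rxra* and -0.059 to 0.039 for *Por*. Leaving out 1 library gave 2 to 4 called of the 6 genes (2 without WT replicate 2, WT replicate 4 or WDR6-WKO replicate 2), 3 to 4 AhR targets, 7 to 17 CAR and PXR targets, 3 to 12 complex and coregulator genes, 0 to 5 dimer partners, 0 to 1 *Por* partners and 3 to 7 PARP genes. Over all genes those fits called 1032 to 4233. The thresholds of the study, applied to the edgeR values, were passed by 10.4% of all genes tested. They gave 1 of the 6 genes, 3 AhR targets, 9 CAR and PXR targets and 2 complex and coregulator genes. From the remaining lists they gave 0 *Por* partners, 3 PARP genes and 1 dimer partner. That dimer partner was *Vdr*, higher in WDR6-WKO (log2 fold change 0.62) but not called (adjusted p = 0.0879 in edgeR). Its level was low, at 1.28 to 2.09 CPM in WT and 2.27 to 2.90 CPM in WDR6-WKO. The called genes *Epas1*, *Pparg* and *Nr1h4* did not pass these thresholds. *Pparg* missed narrowly, with a log2 fold change of -0.3499 in edgeR, where DESeq2 gave -0.3548. The cause of these shifts was not tested. Of 434 values of the 31 other named genes, 383 kept direction and call, 51 lost the call and 0 changed sign.

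Replicate numbers were shared by WT and WDR6-WKO, but deviations of same-numbered libraries correlated at 0.0202 to 0.0396 only, so the numbers were not taken as pairs. With the replicate number as a block, 4 of the 6 genes were called, and 1762 of all genes in place of 1897.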

Other observations

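On the AhR list, *Nqo1* and *Cyp2s1* had separate ranges without being called. *Nqo1*, a quinone reductase that both AhR and NRF2 induce, averaged 13.3 ± 0.953 CPM (SD, n = 4) in WT and 15.9 ± 0.310 CPM (SD, n = 3) in WDR6-WKO (log2 fold change 0.25, adjusted p = 0.0749 in edgeR), while *Nfe2l2* fell. *Cyp2s1*, an extrahepatic P450 of the same list, was at 0.301 to 0.524 CPM in WT and 0.662 to 0.949 CPM in WDR6-WKO (log2 fold change 1.13, adjusted p = 0.0550 in edgeR).

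*Hnf4a*, which encodes a hepatocyte factor known to sustain PXR and CAR, was at 397, 375, 376 and 394 CPM in WT replicates 1 to 4 and at 345, 325 and 290 CPM in WDR6-WKO replicates 1 to 3. The order of the 3 WDR6-WKO libraries was the same for *Hnf4a* and for *Nr1i2*, and was also the order of their total counts. In WT the orders differed, with replicate 4 above replicate 3 for *Hnf4a* and below it for *Nr1i2*. Any link between these genes was not tested.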
